A study of Homo sapiens with 30 samples.

Results

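The genes described here are 10 long noncoding RNAs whose transcripts carry small nucleolar RNAs (snoRNAs): GAS5, SNHG1, SNHG3, SNHG5, SNHG6, SNHG8, SNHG12, SNHG15, SNHG16 and ZFAS1. They were picked out by name, as 10 of the 57992 genes in the deposited RNA-Seq table, with no cut on an expression value. Each was found in 1 row of the table and passed the filter on low values in every comparison. The libraries came from 2 human cell lines. HCT116 is a colorectal carcinoma line, and Ramos is a Burkitt lymphoma line in which a translocation drives MYC. HCT116 cells were untreated or received 2 μM or 10 μM Omomyc for 6 h or 24 h, and Ramos cells were untreated or received 0.5 μM or 2.5 μM Omomyc for 6 h or 24 h, with 3 libraries in each of the 10 groups. The lower HCT116 dose is the one in the labels, and the methods of the study give 2.5 μM for it. Libraries titled 24 h also carry a time tag of 4 h, and the titles were followed. Each line had 1 untreated group with no time point of its own. Per the methods, Omomyc was given to HCT116 cells with a protein delivery reagent, and whether untreated cells received that reagent is not given in the sources used here. The same holds for how Omomyc was delivered to Ramos cells. The labels do not say whether libraries of a group came from separate cultures, so p-values measure the spread between these libraries, which may be technical.

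Omomyc is a small protein made from an altered dimerization domain of MYC. It binds MAX and DNA without activating transcription, and it has been used as an inhibitor of MYC. A snoRNA host gene is transcribed as a longer RNA, and the snoRNAs are cut out of its introns. Box C/D snoRNAs guide methylation and H/ACA snoRNAs guide pseudouridylation, mostly on ribosomal RNA. What is left after splicing is a host RNA with no known main protein product, and for several hosts this RNA is degraded by nonsense-mediated decay when it is translated. Several hosts also begin with a tract of C and T, the terminal oligopyrimidine tract known from ribosomal protein genes, which links their translation to growth conditions. GAS5 was named for its accumulation in growth-arrested cells.

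The sequences around the annotated starts are shown because that tract, and the CACGTG E-box that MYC and MAX bind, would lie there. The following 50 bases run 5′ to 3′ with the RefSeq start (GRCh38.p14) after the first 25. Capitals mark the unbroken run of C and T that begins at the annotated start, and a sequence without capitals has none.
GAS5: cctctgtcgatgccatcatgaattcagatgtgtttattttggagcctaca
SNHG1: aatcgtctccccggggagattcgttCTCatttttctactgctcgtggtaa
SNHG3: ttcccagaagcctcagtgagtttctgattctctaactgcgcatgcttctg
SNHG5: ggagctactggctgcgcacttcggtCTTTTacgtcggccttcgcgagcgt
SNHG8: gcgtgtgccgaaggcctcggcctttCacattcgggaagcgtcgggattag
SNHG12: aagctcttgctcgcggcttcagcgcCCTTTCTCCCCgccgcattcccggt
SNHG16: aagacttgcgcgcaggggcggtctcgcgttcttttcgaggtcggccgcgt
ZFAS1: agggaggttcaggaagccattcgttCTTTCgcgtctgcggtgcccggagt
A run of at least 5 was found in 3 of these 8 genes, SNHG5, SNHG12 and ZFAS1, and in 5.17% of 35116 RefSeq promoters. SNHG6 and SNHG15 had no entry. Annotated starts differ between sources, by 163 bases for GAS5, 464 bases for ZFAS1 and 1259 bases for SNHG12 between RefSeq and GENCODE release 29. The run depends on the start used. A GENCODE start shared by 2 of 17 SNHG12 transcripts had a run of 2, and one shared by 4 of 10 ZFAS1 transcripts had a run of 1. For SNHG5 a start shared by 3 of 23 transcripts kept a run of 5. In GENCODE, 6 of the 29 GAS5 transcripts and 2 of the 8 SNHG16 transcripts start with the same 6 letters, as these first 30 bases show, with the run in capitals.
GAS5-210: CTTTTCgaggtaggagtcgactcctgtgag
SNHG16-204: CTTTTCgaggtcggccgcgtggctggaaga
The E-box CACGTG, which reads the same on both strands, was searched in windows of 300 bases, 250 before and 50 after the RefSeq start. It was in 0 of the 8 windows and in 7.26% of the 35116 promoters, which says only that these letters are not in these windows.

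On GRCh38 (GENCODE release 29), the 10 genes lie on 8 chromosomes. SNHG3 (chr1:28505980-28510892, plus strand), SNHG12 (chr1:28578538-28583132, minus strand) and GAS5 (chr1:173863900-173868882, minus strand) are on chromosome 1. SNHG1 is at chr11:62851988-62855914 and SNHG5 at chr6:85660950-85678748, both on the minus strand. SNHG8 is at chr4:118278709-118279823 on the plus strand, and SNHG15 is at chr7:44983023-44986961 on the minus strand. SNHG16 (chr17:76557766-76565348) and ZFAS1 (chr20:49278178-49295738) are on the plus strand, and SNHG6 (chr8:66921684-66926398) is on the minus strand. The library kit marks strand, but the strand setting used in counting is not given in the sources used here. SNHG6 shares 365 exon bases with MCMDC2 on the other strand, ZFAS1 shares 249 with ZNFX1, GAS5 shares 42 with GAS5-AS1 and SNHG12 shares 8 with TRNAU1AP, so reads over those bases may be uncertain. MCMDC2 and GAS5-AS1 each averaged below 0.5 RPKM in both lines.

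The values are in RPKM, that is, reads scaled by transcript length and library size, deposited without read counts, so the depth of each library is unknown. RPKM sums ranged from 593600 to 1051000 in the HCT116 libraries and from 783800 to 973700 in the Ramos libraries. The lines matched their labels: 6 of 6 epithelial markers summed to 1473 to 2345 RPKM in HCT116 and to at most 1.94 RPKM in Ramos, where CDH1 was at 0 in all 15 libraries. The 6 B cell markers summed to 1498 to 1672 RPKM in Ramos and to at most 3.08 RPKM in HCT116, where MS4A1 was at 0 in all 15. Replicate 3 of HCT116 at 10 μM and 6 h stood apart, with the highest RPKM sum (1051000), 54.0% of it in small structural RNA genes (snoRNA, snRNA, 7SL, 7SK and the like), and a correlation with the other libraries of its group of 0.97 to 0.98. RN7SL1, the RNA of the signal recognition particle, was at 207400 RPKM there against an untreated mean of 40830 RPKM. The comparison of that group with untreated cells is therefore given with and without it. Other results that use the group include this library unless stated.

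In untreated cells all 10 hosts were expressed well above the filter, and the lines ranked them differently. In HCT116 the order by mean RPKM was GAS5 (308.9 ± 20.2, SD, n = 3), SNHG16 (244 ± 7.82), SNHG1 (207 ± 1.86), ZFAS1 (185 ± 6.46), SNHG6 (139.7 ± 8.12), SNHG8 (89.4 ± 4.33), SNHG5 (75.5 ± 1.70), SNHG3 (67.2 ± 5.48), SNHG12 (49.7 ± 5.003) and SNHG15 (25.8 ± 1.69). No pair of neighbours in that order overlapped between libraries. In Ramos, SNHG5 (634 ± 37.3) and GAS5 (613 ± 16.8) came first and their libraries overlapped. SNHG1 followed (217.5 ± 9.83), then SNHG6 (123 ± 5.02), ZFAS1 (117 ± 17.2), SNHG8 (117 ± 12.2) and SNHG3 (111 ± 4.32), which overlapped from each to the next. SNHG16 (89.8 ± 2.77), SNHG12 (82.4 ± 1.26) and SNHG15 (75.4 ± 0.261) were the lowest and did not overlap. In bulk samples less RNA per cell and fewer cells with that RNA cannot be told apart.

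**Figure D1:**
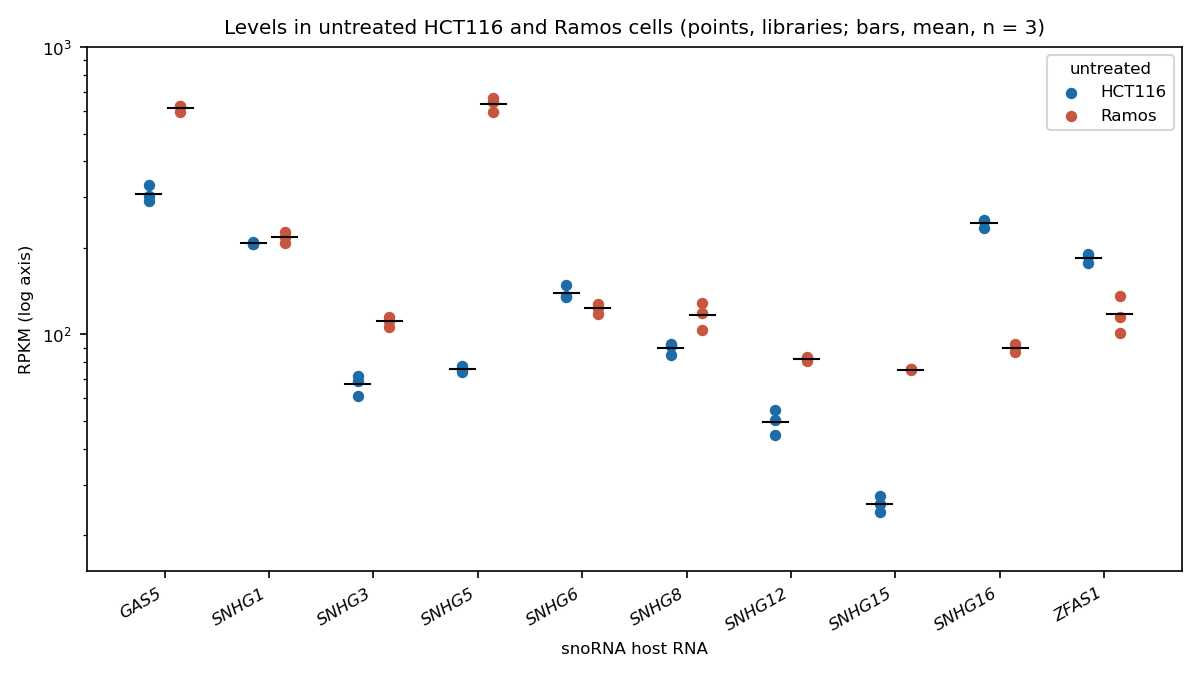
Level of each host in untreated HCT116 and Ramos cells, in RPKM on a log axis, with 1 point per library (3 per line) and the group means marked. SNHG5 is far higher in Ramos (634 RPKM against 75.5) and SNHG16 higher in HCT116 (244 RPKM against 89.8), while SNHG1 overlaps between the lines.

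Between untreated lines, 3 of the 10 hosts were higher and 6 lower in HCT116 than in Ramos (limma on log2(RPKM + 0.5), Benjamini-Hochberg adjusted p under 0.05, used for every call here), where 45.7% of the 15647 genes tested were called higher and 39.0% lower, so most genes of any kind were called. SNHG5, host of SNORD50 genes, showed the widest gap. Its untreated HCT116 libraries were at 74.0, 77.3 and 75.3 RPKM and its untreated Ramos libraries at 665, 593 and 644 RPKM, a log2 difference of -3.06 ± 0.05 (SE, adjusted p = 4.15e-09). SNHG15, host of SNORA9, was also lower in HCT116, at 24.1, 27.5 and 25.8 RPKM against 75.5, 75.6 and 75.1 RPKM (log2 difference -1.53 ± 0.05). The log2 difference was -0.99 ± 0.05 for GAS5, -0.73 ± 0.07 for SNHG12, -0.72 ± 0.07 for SNHG3 and -0.38 ± 0.08 for SNHG8. In the other direction, SNHG16 was at 248, 235 and 249 RPKM in HCT116 and at 92.3, 86.8 and 90.1 RPKM in Ramos (1.44 ± 0.04, adjusted p = 6.44e-08). ZFAS1 (0.66 ± 0.10) and SNHG6 (0.18 ± 0.05, adjusted p = 0.0175) were higher in HCT116 as well, and the SNHG6 call was lost without Ramos untreated replicate 3 (0.15, adjusted p = 0.0527). SNHG1 overlapped between the lines, at 206 to 209.6 RPKM and 207 to 227 RPKM (-0.07 ± 0.04, adjusted p = 0.176), and without the same Ramos library it was called lower in HCT116 (-0.10). When each library was scaled to an equal sum of RPKM, the all-gene median went from 0.09 to 0.65 and the tally of hosts turned to 5 higher and 3 lower in HCT116. SNHG8 (0.19) and SNHG1 (0.51) were then called higher, and the calls of SNHG3 (-0.15, adjusted p = 0.214) and SNHG12 (-0.15, adjusted p = 0.123) were lost. The split of all genes moved from 7144 higher and 6098 lower to 9756 and 3504.

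HCT116 cells given 2 μM Omomyc for 6 h had higher levels of 8 of the 10 hosts, and 0 were lower. Over all 14550 genes tested, 15.5% were higher and 31.8% lower, and the median log2 fold change was 0.45 for the hosts and -0.12 for all genes. SNHG5 (1.71-fold), SNHG15 (1.68-fold), SNHG3 (1.62-fold) and SNHG8 (1.56-fold) moved the most, and GAS5 and SNHG1 overlapped with untreated cells. The 4 hosts that carry mainly H/ACA snoRNAs, SNHG3, SNHG8, SNHG12 and SNHG15, all rose, and 4 of the 6 box C/D hosts did. All 8 that rose had treated libraries above every untreated one, as did 19.3% of all genes tested. For 3 libraries against 3 the two-sided exact permutation test cannot give a p below 0.1, which is what it gave for each of them.

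The H/ACA hosts are described first. SNHG3, which carries SNORA73A and SNORA73B, was at 71.6, 61.0 and 68.8 RPKM in untreated cells and at 106, 113 and 107 RPKM after 6 h at 2 μM (log2 fold change 0.69 ± 0.07, SE, adjusted p = 0.000125). With 10 μM for 6 h it was at 105, 161 and 243.5 RPKM, and at 24 h it was at 75.8, 77.6 and 74.1 RPKM with 2 μM and at 93.5, 85.0 and 87.7 RPKM with 10 μM. No treated library of SNHG3 was as low as the highest untreated one, and the 6 h libraries were all above the 24 h ones. SNHG8, host of SNORA24, was at 84.5, 91.0 and 92.6 RPKM untreated, at 145, 147 and 129 RPKM after 6 h at 2 μM (0.64 ± 0.07, adjusted p = 0.000171) and at 128, 153.5 and 253 RPKM after 6 h at 10 μM. Its 24 h libraries were at 97.4, 96.5 and 97.5 RPKM with 2 μM and at 123, 114 and 108 RPKM with 10 μM. As with SNHG3, the treated libraries all lay above the untreated ones.

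SNHG15 had the lowest level of the 10 in HCT116, with 24.1, 27.5 and 25.8 RPKM in untreated cells. It was at 45.9, 43.0 and 41.8 RPKM after 6 h at 2 μM (0.75 ± 0.07, adjusted p = 8.83e-05) and at 43.6, 54.8 and 63.8 RPKM after 6 h at 10 μM. At 24 h it was at 28.1, 25.2 and 31.1 RPKM with 2 μM, which overlapped untreated cells, and at 33.1, 32.8 and 32.7 RPKM with 10 μM, which did not. SNHG12, host of SNORA61, SNORA44, SNORA16A and SNORD99, was as high at 24 h as at 6 h with 2 μM, within its spread. It was at 50.2, 54.4 and 44.5 RPKM untreated, and at 76.2, 64.8 and 68.0 RPKM after 6 h at 2 μM (0.48 ± 0.09, adjusted p = 0.00201). At 24 h it was at 71.3, 76.8 and 71.9 RPKM with 2 μM and at 77.1, 72.8 and 88.7 RPKM with 10 μM. Its highest libraries were those of 10 μM at 6 h, with 96.0, 128 and 131 RPKM.

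Among the box C/D hosts, SNHG5 was at 74.0, 77.3 and 75.3 RPKM in untreated HCT116 cells and at 129, 147 and 113 RPKM after 6 h at 2 μM (0.77 ± 0.09, adjusted p = 0.000204). With 10 μM for 6 h it was at 109.5, 138 and 293 RPKM, where replicate 3 alone was more than double replicate 2. At 24 h it was at 87.3, 90.6 and 86.2 RPKM with 2 μM and at 113.5, 104 and 94.3 RPKM with 10 μM, all above untreated cells. GAS5, the most abundant of the 10 in HCT116, was at 304, 292 and 331 RPKM untreated and at 339, 339.5 and 294 RPKM after 6 h at 2 μM. These overlapped (0.07 ± 0.08, adjusted p = 0.512), and at an equal sum of RPKM the same comparison was called lower, at -0.27. GAS5 was at 317, 479 and 639.8 RPKM after 6 h at 10 μM, the lowest of which lay within the untreated range. Its libraries at 2 μM and 24 h, with 308, 309 and 325.5 RPKM, lay within that range too. SNHG1, host of a row of SNORD genes from SNORD22 to SNORD30, was at 207, 209.6 and 206 RPKM untreated and at 226, 207 and 198 RPKM after 6 h at 2 μM (0.02 ± 0.07, adjusted p = 0.832, called lower at -0.32 with an equal sum of RPKM). Its libraries at 10 μM and 6 h were at 241, 375 and 340.4 RPKM and those at 2 μM and 24 h at 222, 234 and 227 RPKM, all above the untreated ones.

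SNHG6, ZFAS1 and SNHG16, the other box C/D hosts, rose by smaller amounts than SNHG5 at 2 μM and 6 h. SNHG6, host of SNORD87, was at 134, 136 and 149 RPKM untreated and at 157, 213 and 157 RPKM after 6 h at 2 μM (0.32 ± 0.11, adjusted p = 0.0451, -0.02 at an equal sum of RPKM). ZFAS1, host of SNORD12 genes, was at 178, 190.1 and 187 RPKM untreated and at 216, 291 and 209.5 RPKM after 6 h at 2 μM (0.35 ± 0.11, adjusted p = 0.0297). Both calls were lost when any 1 of the untreated libraries was left out. SNHG16, host of SNORD1A, SNORD1B and SNORD1C, was at 248, 235 and 249 RPKM untreated and at 308, 374 and 301 RPKM after 6 h at 2 μM (0.42 ± 0.09, adjusted p = 0.00429). For all 3, replicate 2 was the highest of the 6 h group. After 24 h at 2 μM SNHG6 was at 126, 139 and 111 RPKM and ZFAS1 at 160.1, 176 and 181 RPKM, which overlapped untreated cells.

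**Figure D2:**
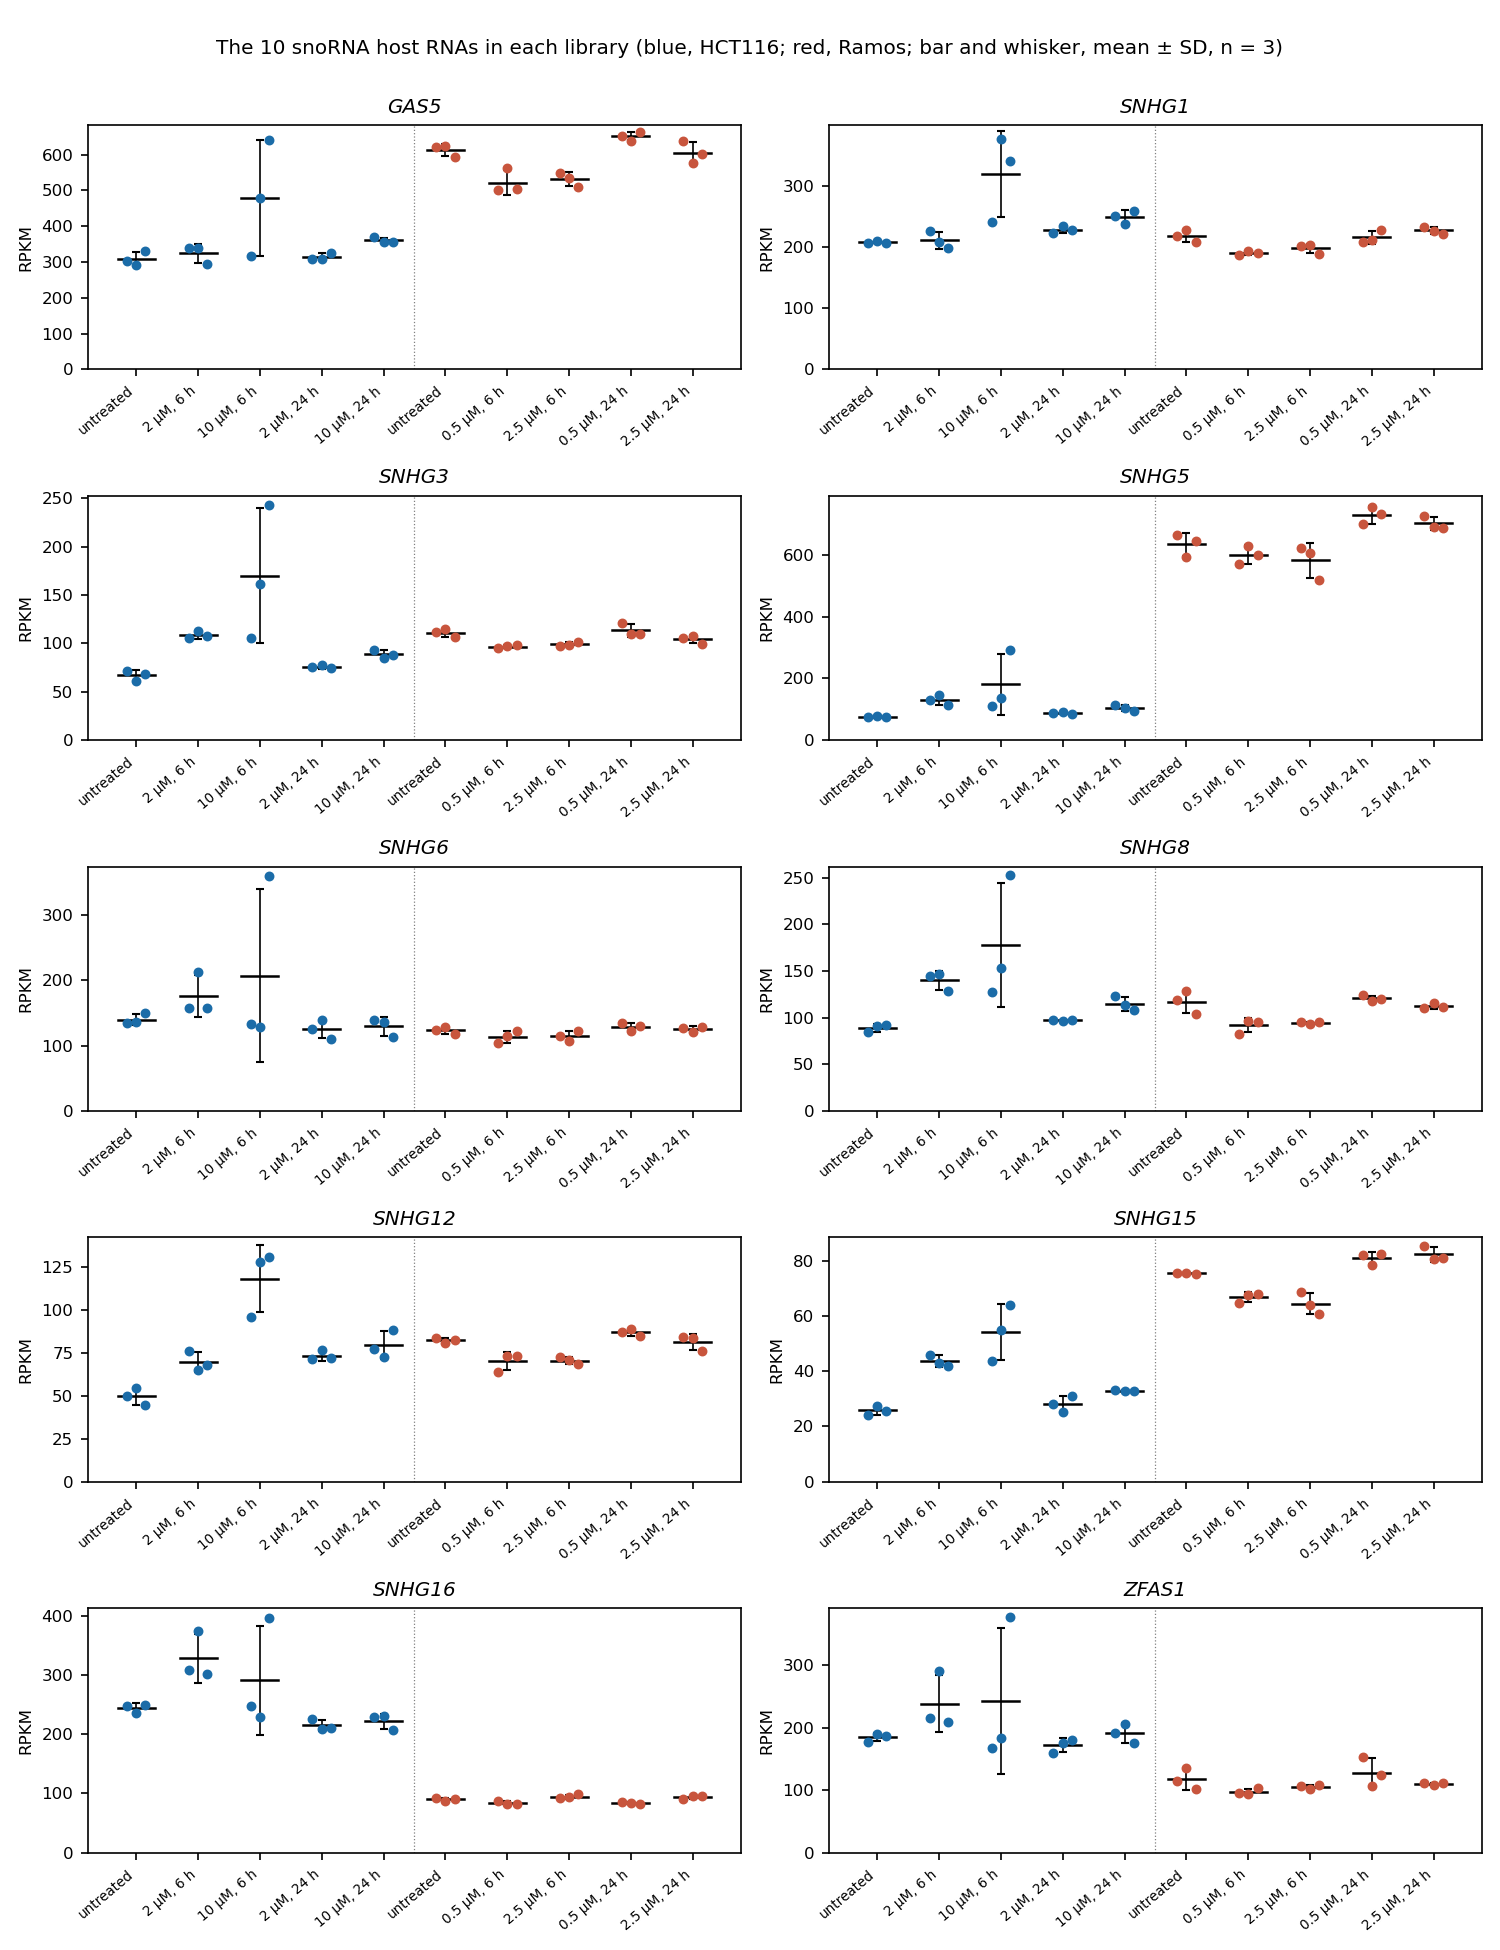
Level of the 10 hosts in each of the 30 libraries, in RPKM, with 1 panel per host, 1 point per library and bars for the mean ± SD of each group (n = 3). In HCT116 the 6 h groups are the highest for most hosts and replicate 3 at 10 μM and 6 h is often the top point (293 RPKM for SNHG5, 359 RPKM for SNHG6), whereas the Ramos group means of a host differ by at most 1.32 times.

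At 10 μM and 6 h, 6 of the 10 hosts were higher in HCT116 than in untreated cells and 0 lower, against 8.84% higher and 21.2% lower of 14785 genes. The medians were 0.76 for the hosts and -0.11 for all genes. SNHG3 rose by 1.25 ± 0.27 (adjusted p = 0.0133), SNHG12 by 1.23 ± 0.15 (adjusted p = 0.00179), SNHG5 by 1.12 ± 0.32 (adjusted p = 0.0353), SNHG15 by 1.04 ± 0.15 (adjusted p = 0.00302), SNHG8 by 0.93 ± 0.23 (adjusted p = 0.0218) and SNHG1 by 0.59 ± 0.17 (adjusted p = 0.0331). Without replicate 3 of the treated group the 6 calls stood with smaller values, 0.95 for SNHG3, 1.16 for SNHG12, 0.70 for SNHG5, 0.91 for SNHG15, 0.65 for SNHG8 and 0.53 for SNHG1. For SNHG6, ZFAS1 and SNHG16 that replicate decided the level of the group. SNHG6 was at 132.5, 128 and 359 RPKM, ZFAS1 at 168, 183.5 and 377.5 RPKM, and SNHG16 at 247, 229 and 397 RPKM. Their log2 fold changes, 0.39, 0.30 and 0.21, became -0.10, -0.07 and -0.04 without it, and -0.11, -0.20 and -0.28 at an equal sum of RPKM, and none was called in these 3 settings. GAS5 had a value of 0.58 ± 0.24 (adjusted p = 0.102), and of 0.34 without replicate 3 (adjusted p = 0.0936). Leaving out an untreated library also mattered, with 3 hosts called without untreated replicate 1 and 2 hosts without untreated replicate 2 or replicate 3. Calls for SNHG12 and SNHG15 held in each of the 6 fits that left out 1 library.

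After 24 h SNHG12 was called higher than in untreated cells at both HCT116 doses, also with an equal sum of RPKM. At 2 μM, 3 of 10 were higher and 1 lower than in untreated cells, against 16.6% higher and 10.8% lower of 14886 genes, and the medians were 0.12 for the hosts and 0.04 for all genes. SNHG12 rose by 0.56 ± 0.07 (adjusted p = 0.0012) and SNHG5 by 0.22 ± 0.04 (adjusted p = 0.00686). SNHG1 rose by 0.13 ± 0.04 (adjusted p = 0.0394), a call lost in each of 6 fits that left out 1 library and turned to -0.02 at an equal sum of RPKM. SNHG16 fell, from 248, 235 and 249 RPKM to 225, 209 and 211 RPKM (-0.18 ± 0.05, adjusted p = 0.0217). The count was 2 without untreated replicate 3. At an equal sum of RPKM it was 1 higher, SNHG12 (0.40), and 3 lower, SNHG16 (-0.34), SNHG6 (-0.32) and ZFAS1 (-0.26), and SNHG5 was not called (0.06, adjusted p = 0.587).

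At 10 μM and 24 h, 7 of the 10 hosts were higher and 0 lower, where 19.5% of 14827 genes were higher and 15.7% lower. The medians were 0.30 for the hosts and 0.02 for all genes. The H/ACA hosts rose again, SNHG12 by 0.67 ± 0.09 (adjusted p = 0.000504), SNHG3 by 0.40 ± 0.07 (adjusted p = 0.00167), SNHG8 by 0.36 ± 0.06 (adjusted p = 0.00184) and SNHG15 by 0.35 ± 0.06 (adjusted p = 0.00171). SNHG5 rose by 0.45 ± 0.07 (adjusted p = 0.000872, or 0.27 with adjusted p = 0.0648 at an equal sum of RPKM). In 1 fit over all HCT116 groups 1 host was called at 24 h, SNHG12, at 10 μM as at 2 μM, so the other 24 h calls were lost. SNHG5 had an adjusted p of 0.212 at 10 μM and of 0.628 at 2 μM in that fit. SNHG1 was at 249.7, 238 and 259 RPKM, above every untreated library (0.26 ± 0.05, adjusted p = 0.00354). GAS5 was at 369, 357 and 357 RPKM, also above every untreated library (0.23 ± 0.06, adjusted p = 0.0157), and its call was lost without the treated replicate 1, the untreated replicate 1 or the untreated replicate 2. SNHG6 (139, 136 and 112.5 RPKM), SNHG16 (228, 229.7 and 206 RPKM) and ZFAS1 (192, 207 and 176 RPKM) were not called, and their log2 fold changes were -0.12, -0.14 and 0.05. At an equal sum of RPKM, 2 hosts were called in this comparison, SNHG12 higher (0.49) and SNHG16 lower (-0.33), and ZFAS1 turned to -0.14.

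**Figure D3:**
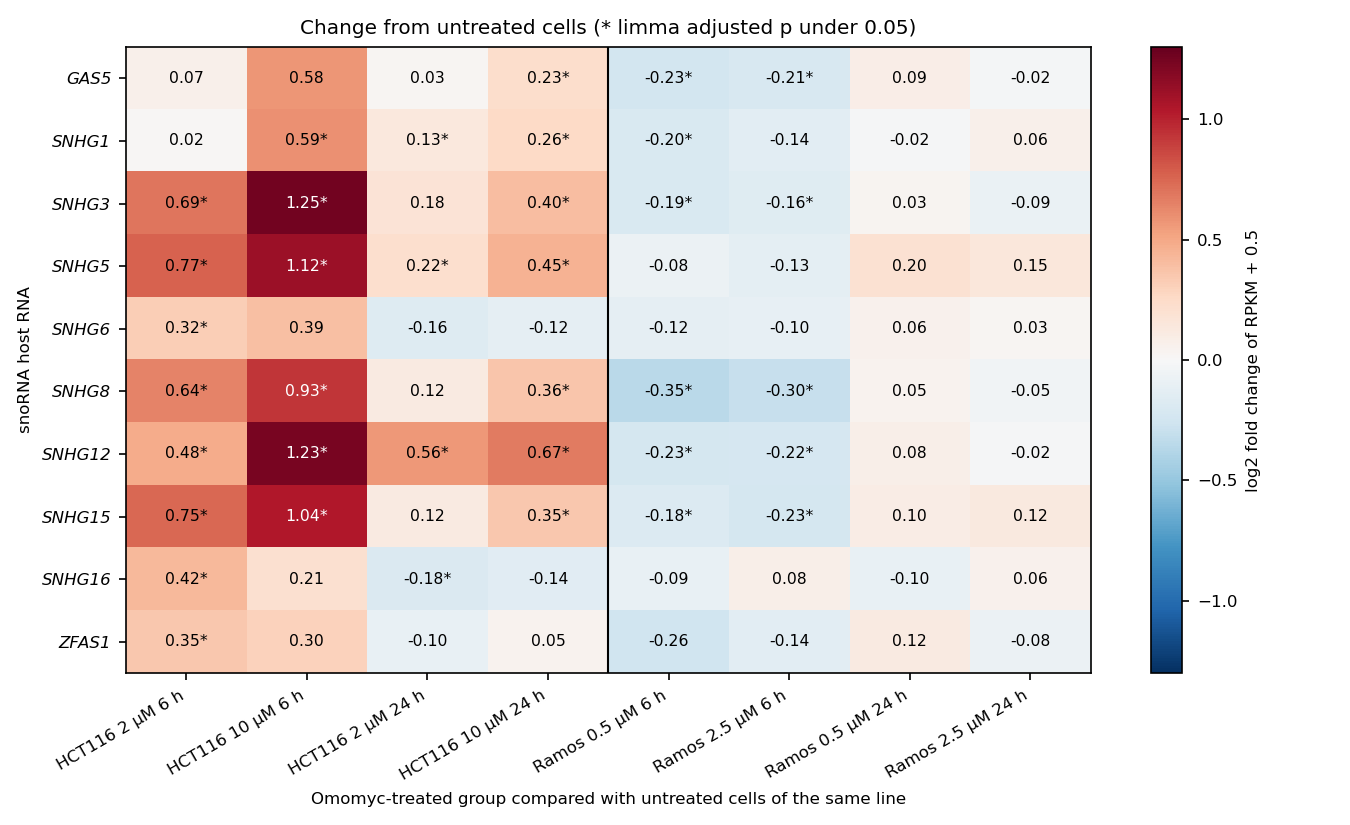
Log2 fold change of each host (rows) in each of the 8 comparisons with untreated cells (columns), as colour and number, with calls marked by an asterisk. The HCT116 columns are mostly positive, with 1.25 for SNHG3 at 10 μM and 6 h, and the Ramos columns at 6 h mostly negative, with -0.35 for SNHG8 at 0.5 μM. At an equal sum of RPKM some of these values change sign, among them SNHG1 at 2 μM (-0.32 at 6 h).

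The direct comparison of 24 h with 6 h does not use the untreated libraries. At 2 μM, 7 of the 10 hosts were lower at 24 h, against 9.85% of 14775 genes. SNHG15 fell by 0.63 on the log2 scale (SE 0.09, adjusted p = 0.00103), SNHG16 by 0.60, SNHG5 by 0.55, SNHG8 by 0.52, SNHG3 by 0.52, SNHG6 by 0.48 and ZFAS1 by 0.46, whereas all genes had a median of 0.16. SNHG12 (0.08 ± 0.08), SNHG1 (0.11 ± 0.07) and GAS5 (-0.04 ± 0.08) overlapped between the times. At an equal sum of RPKM, with an all-gene median of 0.32, 6 hosts were called lower and 1 higher, SNHG1 (0.30, adjusted p = 0.0255). The call of SNHG6 was lost there (adjusted p = 0.0513). In 1 fit over all HCT116 groups 3 hosts were called, all lower. At 10 μM, 1 host was called lower at 24 h, SNHG15 (-0.69 ± 0.15, adjusted p = 0.0308), against 2.06% of 14920 genes, although the median of the hosts was -0.53. That call rested on single libraries, since 0 hosts were called without any 1 of the 24 h libraries or without 6 h replicate 2, and 3 were called without 6 h replicate 1 or replicate 3.

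Between the doses no host was called in HCT116. At 6 h limma called 0.0% of 14601 genes, and 2 hosts had an unadjusted p under 0.05, as did 8.51% of genes, SNHG12 (0.75 ± 0.15, higher at 10 μM) and SNHG1 (0.57 ± 0.18). At 24 h it called 0.18% of 15039 genes, and 6 hosts had an unadjusted p under 0.05, as did 11.6% of genes. The libraries of GAS5, SNHG1, SNHG3, SNHG5, SNHG8 and SNHG15 at 10 μM all lay above those at 2 μM at that time, by log2 differences of 0.20, 0.13, 0.22, 0.23, 0.24 and 0.23, and those of 7.51% of all genes did. The smallest adjusted p was 0.206.

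Other measures also differed between the HCT116 groups, and not always along with the host levels. Small structural RNA genes took 22.4% to 29.8% of the RPKM sum in untreated libraries, 35.4% to 40.4% at 2 μM and 6 h, and 42.5% to 54.0% at 10 μM and 6 h. At 24 h they took 29.1% to 33.5% with 2 μM and 27.2% to 35.7% with 10 μM. Genes of the mitochondrial genome took 0.40% to 0.52% of the sum in untreated libraries and 0.82% to 3.12% in the treated ones. The summed RPKM of the 10 hosts was 1373 to 1429 in untreated libraries, 1619 to 1940.0 at 2 μM and 6 h, 1589 to 3098 at 10 μM and 6 h, 1401 to 1433 at 2 μM and 24 h and 1522 to 1618 at 10 μM and 24 h. The part of these shares in the host results was not tested. RPKM gives each RNA relative to the rest of a library, so more of a host RNA and less of other RNA cannot be told apart.

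**Figure D4:**
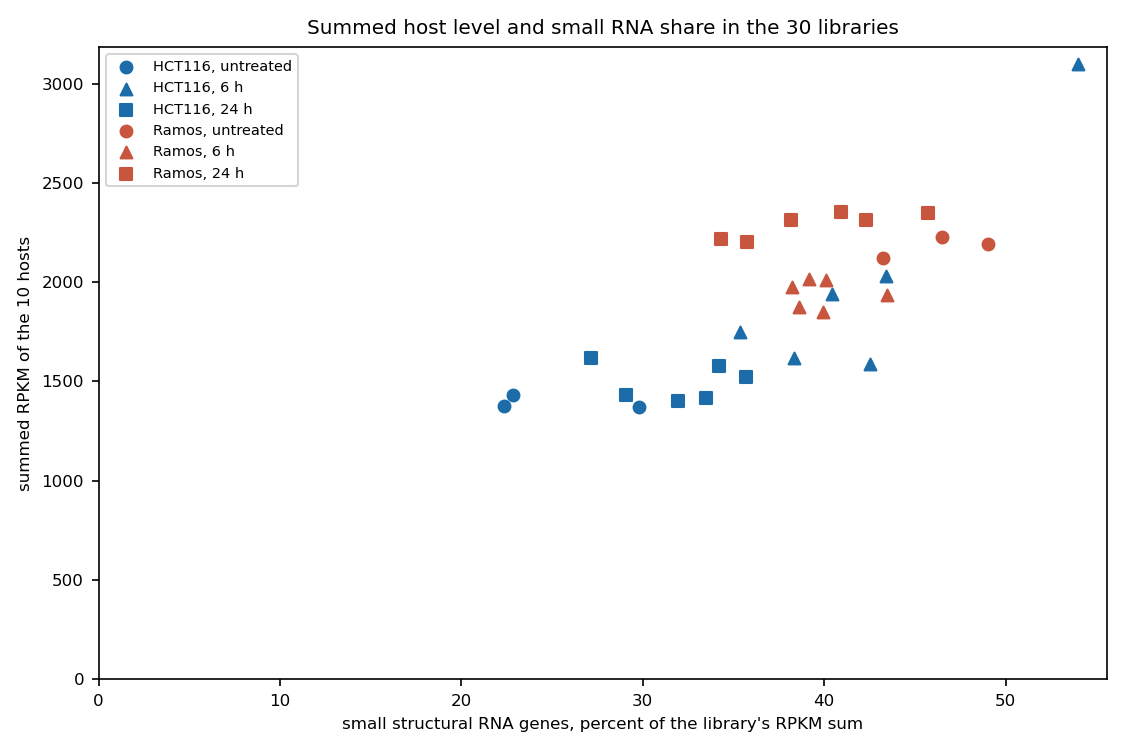
Summed RPKM of the 10 hosts (y) against the percent of the RPKM sum in small structural RNA genes (x), 1 point per library, with HCT116 in blue and Ramos in red and with circles for untreated, triangles for 6 h and squares for 24 h. Replicate 3 of HCT116 at 10 μM and 6 h is the top right point (3098 RPKM and 54.0%), and the Ramos libraries stay between 1850 and 2355 RPKM.

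The scale on which libraries are compared moved all genes at once, and the hosts were therefore also read against the median gene. Median-ratio and equal-sum scaling divide each library by a single factor, which shifts all genes by nearly the same amount. The place of the hosts against the median gene is nearly fixed under them. Its agreement between these settings follows from the scaling and is no support. At 2 μM and 6 h in HCT116, 2251 genes were higher and 4633 lower as deposited. The split was 3426 and 3177 after median-ratio scaling and 623 and 8595 with an equal sum of RPKM, and the median gene stood at 0.00 and -0.42. The median of the hosts exceeded that of all genes by 0.57 as deposited, 0.58 with median-ratio scaling and 0.53 with an equal sum, and all 10 hosts lay above the median gene in these 3 settings, where 8, 8 and 4 were called higher and 0, 0 and 2 lower. With 10 μM for 6 h the excess was 0.87, 0.89 and 0.83, again with 10 of 10 above the median gene, the split of all genes being 1307 and 3132, 2239 and 2281, and 310 and 6925. At 10 μM and 24 h, 8 of 10 lay above the median gene in each of these 3 settings, with an excess of 0.28, 0.28 and 0.26 and splits of 2888 and 2332, 2668 and 2599, and 1001 and 3899. At 2 μM and 24 h, 6 of 10 did, with an excess of 0.08, 0.08 and 0.07 and splits of 2466 and 1605, 2030 and 2103, and 892 and 2980. Quantile normalization is not such a shift. At 2 μM and 6 h it left 8 of 10 above the median gene, with an excess of 0.40. Calls were then 6 higher and 0 lower, with 2886 genes higher and 3487 lower. At 10 μM it left 10 of 10 above at 6 h (excess 0.80) and 7 of 10 at 24 h (excess 0.28). Calls at 10 μM and 24 h were 6 higher and 1 lower, with 2599 genes higher and 2882 lower.

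In Ramos cells the hosts called at 6 h were all lower than in untreated cells. At 0.5 μM and 6 h, 0 of the 10 were higher and 6 lower than in untreated cells, where 13.8% of 13614 genes were higher and 9.73% lower. The medians were -0.20 for the hosts and 0.02 for all genes. SNHG8 was at 119, 128 and 104 RPKM in untreated cells and at 83.0, 96.6 and 95.7 RPKM at 0.5 μM and 6 h, a log2 fold change of -0.35 ± 0.08 (adjusted p = 0.018). GAS5 was at 621, 624 and 594 RPKM untreated and at 501, 562 and 503 RPKM at this dose (-0.23 ± 0.06, adjusted p = 0.0178). SNHG12 (-0.23 ± 0.06), SNHG1 (-0.20 ± 0.05), SNHG3 (-0.19 ± 0.05) and SNHG15 (-0.18 ± 0.04) fell as well. All 6 had treated libraries below every untreated one, as did 18.0% of all genes tested. ZFAS1 (-0.26 ± 0.09, adjusted p = 0.0719), SNHG6 (-0.12 ± 0.06), SNHG16 (-0.09 ± 0.05) and SNHG5 (-0.08 ± 0.06) were not called. The count was 2 without replicate 1 of the treated group and 3 without untreated replicate 1.

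At 2.5 μM and 6 h, 5 hosts were lower and 0 higher, against 10.7% of 13595 genes lower and 17.3% higher, with medians of -0.15 for the hosts and 0.03 for all genes. SNHG8 was at 94.9, 93.2 and 95.6 RPKM, below the untreated 104 to 128 RPKM (-0.30 ± 0.07, adjusted p = 0.0136). SNHG15 was at 68.5, 64.0 and 60.7 RPKM against 75.1 to 75.6 RPKM (-0.23 ± 0.05, adjusted p = 0.0104), and SNHG12 was at 72.5, 70.9 and 68.5 RPKM against 81.0 to 83.5 RPKM (-0.22 ± 0.04, adjusted p = 0.00452). GAS5 (-0.21 ± 0.04, adjusted p = 0.00867) and SNHG3 (-0.16 ± 0.04, adjusted p = 0.0266) also fell. SNHG16 was at 91.7, 93.8 and 98.3 RPKM, which overlapped untreated cells (0.08 ± 0.04). The count was 3 without replicate 2 of the treated group. With an equal sum of RPKM the median of all genes was 0.16 and 1 host was called, SNHG16 higher (0.21), while at 0.5 μM, with a median of all genes of 0.11, SNHG8 alone was called lower (-0.25). Small structural RNA genes took 43.2% to 49.0% of the RPKM sum in untreated Ramos libraries, 39.9% to 43.5% at 0.5 μM and 6 h and 38.2% to 39.1% at 2.5 μM and 6 h, and the part of this in the host results was not tested. Against the median gene the hosts stood 0.22 lower at 0.5 μM and 0.18 lower at 2.5 μM, and 0.21 and 0.17 lower with an equal sum, with 0 and 1 of 10 above the median gene on both scales. An equal sum shifts all genes by nearly the same amount, so this agreement follows from the scaling. With quantile normalization, which is not such a shift, the differences were -0.25 and -0.22, also with 0 and 1 of 10 above. The splits of all genes were 1884 higher and 1325 lower at 0.5 μM and 2346 and 1449 at 2.5 μM, and with an equal sum 2261 and 573, and 3981 and 694.

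At 24 h limma called 0 hosts at either Ramos dose. At 0.5 μM, 0.0146% of 13674 genes were called and 2 hosts, SNHG5 and SNHG15, had an unadjusted p under 0.05, as did 5.58% of genes. At 2.5 μM, 4.61% of 13607 genes were called and the same pair of hosts had an unadjusted p under 0.05, as did 21.4% of genes. SNHG5 was at 699, 755 and 732 RPKM with 0.5 μM and at 726.5, 690.3 and 688 RPKM with 2.5 μM, all above the untreated 593 to 665 RPKM (0.20 ± 0.06 and 0.15 ± 0.05). SNHG15 was at 81.9, 78.4 and 82.2 RPKM and at 85.3, 80.5 and 81.0 RPKM, above the untreated 75.1 to 75.6 RPKM (0.10 ± 0.04 and 0.12 ± 0.04). With an equal sum of RPKM, 6 hosts were called higher at 2.5 μM, on a scale where the median gene stood at 0.24, the split of all genes moved from 449 higher and 178 lower to 5221 and 141, and the median of the hosts lay 0.03 below that of all genes.

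The direct comparison of times in Ramos gave higher host levels at 24 h. At 0.5 μM, 8 of the 10 were higher at 24 h, against 11.9% of 13611 genes. SNHG8 rose by 0.40 ± 0.06 (adjusted p = 0.00149), ZFAS1 by 0.38 ± 0.11, GAS5 by 0.32 ± 0.05, SNHG12 by 0.31 ± 0.06, SNHG5 by 0.28 ± 0.05, SNHG15 by 0.28 ± 0.04, SNHG3 by 0.23 ± 0.05 and SNHG1 by 0.18 ± 0.05. At 2.5 μM, 6 were higher, against 12.7% of 13564 genes, led by SNHG15 (0.35 ± 0.05, adjusted p = 0.00106) and SNHG5 (0.27 ± 0.06). SNHG16 stayed within its spread at both doses (-0.01 ± 0.05 and -0.02 ± 0.04). Between the doses limma called 0 hosts, with 0.429% of 13511 genes called at 6 h and 4.25% of 13629 genes at 24 h. At an unadjusted p under 0.05 there were 2 hosts at 6 h, SNHG16 and ZFAS1, where 10.2% of genes were, and 4 at 24 h, where 21.7% of genes were. Of the 4, SNHG16 had the smallest adjusted p (0.16 ± 0.04, higher at 2.5 μM, adjusted p = 0.0554).

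The lines were set against each other by testing the difference of their responses. For 24 h and the highest dose of each line, 10 μM in HCT116 and 2.5 μM in Ramos, the difference (HCT116 minus Ramos) was called positive for 7 of the 10 hosts and negative for 0, against 9.65% of 15674 genes positive. It was 0.69 ± 0.12 for SNHG12, 0.49 ± 0.09 for SNHG3 and 0.41 ± 0.10 for SNHG8, calls that held in each of 12 fits that left out 1 library, and 0.31 ± 0.09 for SNHG5. The count was 3 without HCT116 10 μM replicate 1, HCT116 untreated replicate 1, Ramos 2.5 μM replicate 2 or replicate 3, or Ramos untreated replicate 1, and 4 without HCT116 untreated replicate 3 or Ramos untreated replicate 2. At an equal sum of RPKM the median gene moved from -0.02 to -0.34, none of the 7 calls was kept, with SNHG12 at 0.30 (adjusted p = 0.0647), SNHG3 at 0.09 and SNHG8 at 0.01, and 2 hosts were called negative, SNHG6 and SNHG16. The split of all genes moved from 1512 positive and 2018 negative to 365 and 6427. For 6 h, with 2 μM in HCT116 and 2.5 μM in Ramos, a comparison added after the data had been seen, 9 of the 10 were called positive, against 12.2% of 15562 genes. SNHG15 (0.97 ± 0.08), SNHG8 (0.94 ± 0.11), SNHG5 (0.90 ± 0.13) and SNHG3 (0.85 ± 0.08) had the widest differences, and these 4 were also called positive with an equal sum of RPKM, at 0.50, 0.47, 0.42 and 0.38. SNHG1 (0.16) was not called, and it was called negative (-0.32) with an equal sum, where the calls of the other 5 were lost and all genes split into 536 positive and 9345 negative, from 1895 and 4422. The doses differ between the lines and the delivery to Ramos cells is not given, so line and treatment conditions cannot be told apart here.

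Other genes of the snoRNA pathway were counted from lists that had been written with earlier results of these data known. For all genes, 15.5% were higher and 31.8% lower at 2 μM and 6 h in HCT116, and 19.5% and 15.7% at 10 μM and 24 h. Of 16 further noncoding hosts that could be tested, 12 were higher and 0 lower at 2 μM and 6 h in HCT116, with a median log2 fold change of 0.63 against -0.12 for all genes. The count was 9 higher and 0 lower at 10 μM and 6 h, against 8.84% and 21.2% of all genes. At 24 h it was 9 and 1 with 2 μM, against 16.6% and 10.8% of all genes, and 10 and 0 with 10 μM (median 0.45). SNHG22, a further noncoding host, rose from 16.2 ± 0.557 to 34.8 ± 7.39 RPKM at 10 μM and 24 h (1.06 ± 0.12, adjusted p = 0.000229), and SNHG25 from 71.7 ± 1.82 to 119.8 ± 7.11 RPKM (0.74 ± 0.05). In Ramos at 6 h, 0 of the 16 were higher and 3 lower at 0.5 μM, against 13.8% and 9.73% of all genes. At 2.5 μM and 6 h, 1 was higher and 3 lower, against 17.3% and 10.7% of all genes.

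Hosts that encode proteins were counted apart. Of 17 protein-coding hosts outside the ribosomal proteins, 10 were higher and 1 lower at 2 μM and 6 h in HCT116 (median 0.21), against 15.5% and 31.8% of all genes, and 5 were higher and 2 lower at 10 μM and 24 h (median -0.01), against 19.5% and 15.7% of all genes. NOP56, a core protein of box C/D particles, rose from 223 ± 2.18 to 309 ± 10.4 RPKM at that dose and time (0.47 ± 0.05), and HSPA8, a heat shock chaperone, by 0.39 ± 0.07. Of 22 ribosomal protein hosts, 8 were higher and 1 lower at 2 μM and 6 h (median 0.21), against 15.5% and 31.8% of all genes. At 10 μM and 24 h, 0 were higher and 2 lower (median -0.06), fewer in each direction than the 19.5% and 15.7% of all genes. RPL3 fell from 902 ± 42.8 to 627 ± 17.0 RPKM at 10 μM and 24 h (-0.52 ± 0.06), and RPS2 by 0.25 on the log2 scale.

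Counts of genes for the machinery that builds snoRNA particles or degrades host RNAs are set beside the shares of all genes in HCT116. These were 15.5% higher and 31.8% lower at 2 μM and 6 h, and 19.5% and 15.7% at 10 μM and 24 h. Of 8 core proteins of snoRNA particles, 6 were higher and 0 lower at 2 μM and 6 h in HCT116, and 1 was higher and 1 lower at 10 μM and 24 h, the lower being DKC1, the pseudouridine synthase of H/ACA particles (-0.14 ± 0.05). NOP56 and DKC1 are counted in the host list too. FBL, the methyltransferase of box C/D particles, rose in Ramos at 2.5 μM and 24 h from 83.0 ± 7.01 to 122.5 ± 2.77 RPKM (0.56 ± 0.06, adjusted p = 0.0042). Of 8 assembly factors, 1 was higher and 1 lower at 2 μM and 6 h in HCT116 and 0 and 1 at 10 μM and 24 h, where ZNHIT6 fell by 0.33. These counts did not exceed the shares of all genes. RUVBL2, an ATPase of the assembly complex, rose by 0.22 ± 0.04 in Ramos at 2.5 μM and 24 h. Of 10 nonsense-mediated decay factors, 0 were higher and 3 lower at 2 μM and 6 h in HCT116 (median -0.18), near the 31.8% of all genes lower, and 2 were higher and 1 lower at 10 μM and 24 h, with SMG9 at 0.46 ± 0.09 and SMG8 at 0.35 ± 0.06. Among other abundant long noncoding RNAs, 1 of 8 tested was higher and 0 lower at 2 μM and 6 h (median 0.11), and 1 of 9 was higher at 10 μM and 24 h, NEAT1, the scaffold of paraspeckles, which rose from 19.3 ± 2.74 to 40.8 ± 7.80 RPKM (1.05 ± 0.14). Neither count exceeded the share of all genes.

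**Figure D5:**
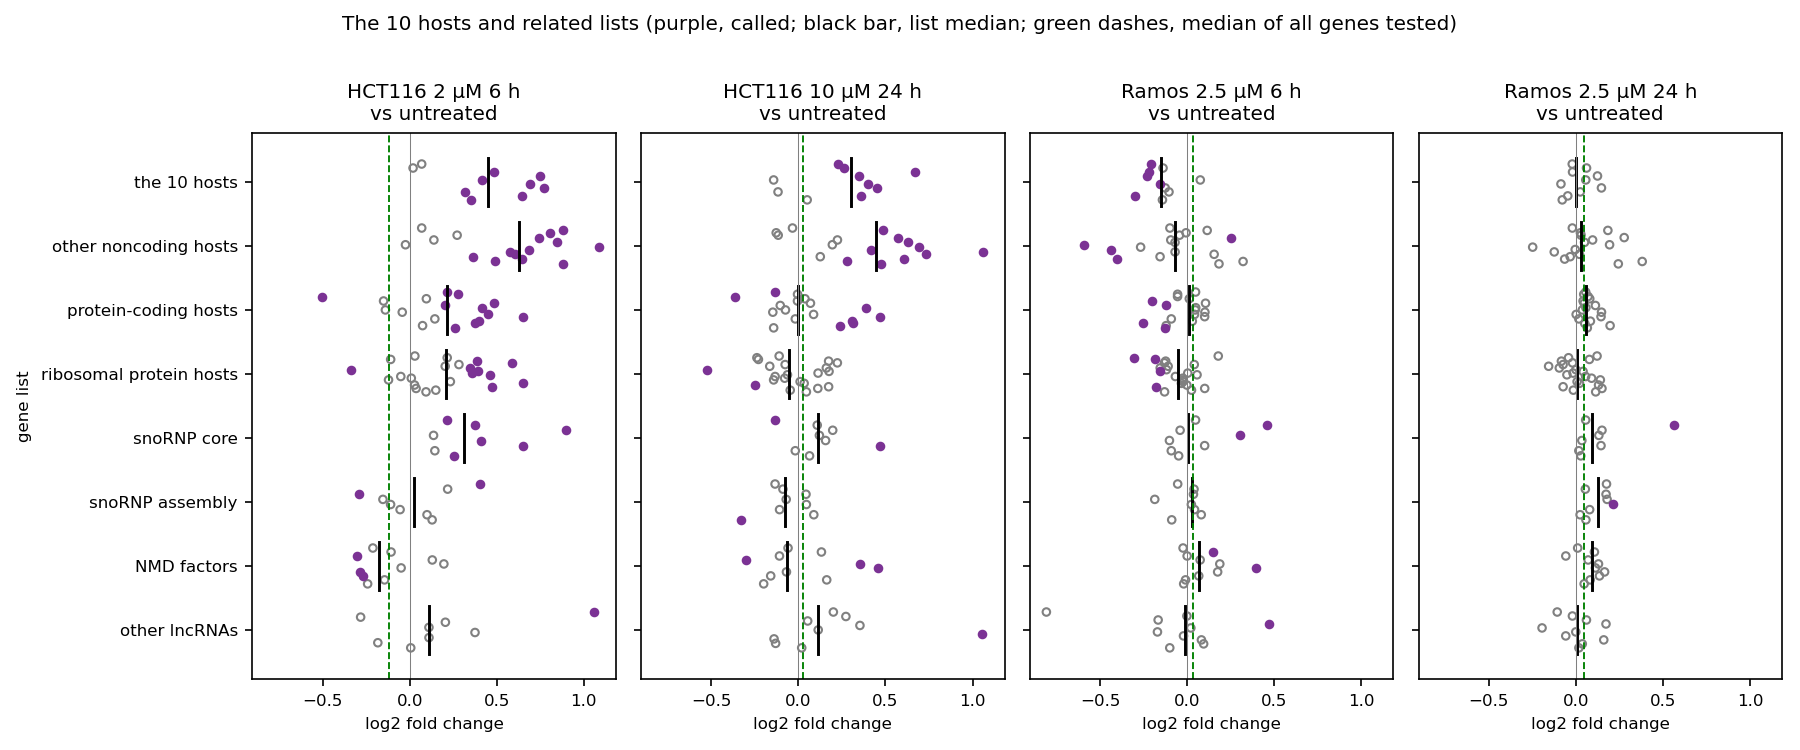
Log2 fold change of each tested gene (points, purple where called) in the 10 hosts and the 7 related lists, in 4 comparisons with untreated cells, with a black bar for the median of each list and a green dashed line for the median of all genes. The medians of both noncoding host lists lie above the green line in HCT116 at 2 μM and 6 h (0.45 and 0.63), and in Ramos at 2.5 μM and 6 h all of the 10 hosts except SNHG16 lie below it (median -0.15). With an equal sum of RPKM all points shift down in HCT116, and GAS5 and SNHG1 are then called lower at 2 μM and 6 h.

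Few of the snoRNAs themselves could be read. GENCODE places 24 snoRNA genes inside 9 of the hosts, and none inside GAS5 in this release. Of these, 18 were listed at 0 in every library and 4 were above 0 in some libraries, with at most 1.95 RPKM. Except for SNORD1B, the snoRNAs listed at 0 lie wholly within annotated host exons, taken over all transcripts of the host. SNORD99, SNORD12B and SNORD12C, above 0 in some libraries, share 0 bases with host exons, and SNORD30 shares 34 of its 70. Reads over shared bases may be uncertain, and whether host values include reads from snoRNAs was not tested. The remaining 2 of the 24 were SNORA73A and SNORA73B of SNHG3. They are shown because they are the only measured snoRNAs of the hosts and because they are near copies of each other, with 14 differences between the sequences, so reads may be split between them. The capitals mark the ACA box near the 3′ end.
SNORA73A: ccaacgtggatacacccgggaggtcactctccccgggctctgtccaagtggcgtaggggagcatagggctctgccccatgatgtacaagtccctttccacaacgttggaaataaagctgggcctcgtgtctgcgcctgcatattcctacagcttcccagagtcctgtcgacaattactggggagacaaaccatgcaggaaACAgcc
SNORA73B: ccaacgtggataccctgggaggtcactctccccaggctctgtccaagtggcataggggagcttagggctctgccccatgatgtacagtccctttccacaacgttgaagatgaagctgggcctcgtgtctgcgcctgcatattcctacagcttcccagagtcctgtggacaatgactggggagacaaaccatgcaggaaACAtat
All 206 bases of SNORA73A lie within annotated SNHG3 exons and none of SNORA73B does, and SNHG3 also shares 242 of its 4088 exon bases with RCC1 on the same strand. SNORA73B was at 198, 322 and 269 RPKM in untreated HCT116 cells, at 498, 441 and 616 RPKM at 2 μM and 6 h (0.99 ± 0.17, adjusted p = 0.00149), and at 777, 1085 and 341 RPKM at 10 μM and 6 h (1.35 ± 0.40, adjusted p = 0.0385). SNORA73A was at 380.1, 743 and 587 RPKM untreated and at 999.5, 787 and 1149 RPKM at 2 μM and 6 h (0.82 ± 0.22, adjusted p = 0.014). After 6 h at 10 μM SNORA73A was at 1634, 2416 and 363 RPKM (1.04 ± 0.64, adjusted p = 0.256). Replicate 3 was the lowest of that group for both snoRNAs and the highest for SNHG3. At 2 μM and 24 h SNORA73A (0.71 ± 0.22, adjusted p = 0.0407) and SNORA73B (0.74 ± 0.18, adjusted p = 0.0158) were called higher while SNHG3 was not (0.18 ± 0.06, adjusted p = 0.0588), and at 10 μM and 24 h SNHG3 was called and the snoRNAs were not (-0.01 ± 0.27 and 0.02 ± 0.21). Whether host and snoRNA differed from each other was not tested. RCC1, which encodes an exchange factor for RAN, changed by 0.27 ± 0.05 at 2 μM and 6 h and 0.18 ± 0.04 at 10 μM and 24 h in HCT116, both called. It was not called in HCT116 at 10 μM and 6 h (0.08) or at 2 μM and 24 h (0.03). In Ramos at 2.5 μM and 6 h RCC1 was called higher (0.24 ± 0.06, adjusted p = 0.018), where SNHG3 was called lower (-0.16), and it was not called in the other Ramos comparisons with untreated cells. In Ramos neither snoRNA was called in any comparison with untreated cells.

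Genes that start close by on the other strand did not follow the hosts call for call. SLC3A2, the heavy chain of an amino acid transporter, starts 188 bases from SNHG1. It was called higher at 10 μM and 24 h in HCT116 (185 against 157 RPKM, 0.23, adjusted p = 0.00614), where SNHG1 was 0.26, and in none of the other 7 comparisons with untreated cells. ZNFX1 starts 248 bases from ZFAS1 and was called lower in Ramos at 6 h, at -0.33 with 0.5 μM and -0.31 with 2.5 μM, where ZFAS1 was not called (-0.26 and -0.14). ZBTB37 starts 800 bases from GAS5 and was called in 0 of these 8 comparisons.

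The 10 hosts differed in how far they shared a course over the 10 groups. With each line centred on the mean of its 5 groups, the correlation of a pair of hosts over the 10 group means ranged from 0.07 to 0.99 over 45 pairs, with a median of 0.81. These are descriptions over 10 points that share the library scale. SNHG8 (0.99), SNHG15 (0.99), SNHG5 (0.98) and SNHG3 (0.97) were closest to the median course of the 10, and SNHG1 (0.70) and SNHG16 (0.64) were farthest from it. Among 9229 genes, those most like the median course were EPC1 (0.98), RABGGTB (0.97), TVP23B (0.97), CD55 (0.97) and PMM2 (0.97). By single hosts the closest gene was SNHG15 for SNHG5 (0.99) and for SNHG8 (0.98), SNHG5 for SNHG15 (0.99), EPC1 for SNHG3 (0.98), CCNL1 for SNHG12 (0.98), RPL22L1 for SNHG6 (0.99), TXNRD1 for SNHG16 (0.99), RPS18 for ZFAS1 (0.98), ATAD1 for GAS5 (0.95) and TMEM30A for SNHG1 (0.94). The highest group mean was 1.41 times the lowest for ZFAS1 and 2.53 times for SNHG3 in HCT116, the extremes of the 10, and in Ramos the ratio ran from 1.13 for SNHG6 to 1.32 for ZFAS1.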

How the data were processed

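RNA-Seq was done on total RNA depleted of ribosomal RNA with a stranded kit, per the labels. The authors deposited RPKM values for 57992 genes, 1 column per library. RSEM is named in the submitters' processing notes, and the genome build, annotation and strand setting are not given in the sources used here. Values are fractional, so no count model was used. Ensembl identifiers were matched to GENCODE release 29, which gave a symbol for 57388 genes and none for 604.

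The log2 of RPKM plus 0.5 was fitted in limma 3.58.1 (R 4.3.3) with a mean trend, using only the 3 + 3 libraries of a comparison and genes with a mean of at least 0.5 RPKM. Genes with a Benjamini-Hochberg adjusted p under 0.05 over all genes tested were called. There were 18 planned comparisons, and the 6 h test between lines was added later. The fit was tested on simulated data. Alternatives were pseudocounts of 0.1 and 1, no filter, a mean of at least 2 RPKM, median-ratio, quantile and equal-sum scaling, a replicate block, 1 fit over all groups of the line or lines compared, and leaving out each library.

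The members and the related lists were chosen with earlier results of these data known. All 10 members are named. From each related list, the 2 genes with the largest called change at 24 h are named, and likeness was measured by Pearson's r over group means, among genes with a mean of at least 2 RPKM in each line. The promoter table is RefSeq's (GRCh38.p14), and snoRNA and transcript sequences come from GENCODE.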

Additional observations from a re-analysis of the deposited data

Results flagged for a closer look

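The change from untreated cells differed between HCT116 and Ramos, by limma's interaction term, for 7 hosts at 24 h (10 μM and 2.5 μM). All were called positive, against 9.65% of 15674 genes. The log2 differences, HCT116 minus Ramos, were 0.25 for GAS5, 0.20 for SNHG1, 0.49 for SNHG3, 0.31 for SNHG5, 0.41 for SNHG8, 0.69 for SNHG12 and 0.22 for SNHG15. At an equal sum of RPKM those of GAS5 (-0.15), SNHG1 (-0.19), SNHG5 (-0.09) and SNHG15 (-0.17) changed sign, and none of the 7 was called, with SNHG12 at 0.30, SNHG3 at 0.09 and SNHG8 at 0.01. For 6 h (2 μM and 2.5 μM), a comparison added after the data had been seen, 9 hosts were called positive, against 12.2% of 15562 genes. The differences were 0.85 for SNHG3, 0.71 for SNHG12, 0.28 for GAS5, 0.94 for SNHG8, 0.90 for SNHG5, 0.97 for SNHG15, 0.42 for SNHG6, 0.34 for SNHG16 and 0.50 for ZFAS1. At an equal sum those of GAS5 (-0.20), SNHG6 (-0.06) and SNHG16 (-0.14) changed sign, and these 3, ZFAS1 (0.02) and SNHG12 (0.23) were not called. The treated doses differ between the lines and the delivery to Ramos cells is not given, so line and treatment conditions cannot be told apart.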

How the results depend on the processing

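Host values under alternatives were tallied for the 8 comparisons with untreated cells, the untreated lines and the 24 h difference between lines. The comparisons of times and of doses are not in this tally. Of its 1560 values, 1364 stayed on the same side of the threshold (42 of them, called in neither fit, changed sign), 155 lost the call, 30 gained it and 11 reversed. All 11 came with an equal sum of RPKM: GAS5 -0.27, SNHG1 -0.32 and SNHG6 -0.022 (HCT116, 2 μM, 6 h), SNHG1 -0.023 (2 μM, 24 h), GAS5 0.19 (Ramos, 2.5 μM, 24 h), SNHG1 0.51 and SNHG8 0.19 (untreated lines), and GAS5 -0.15, SNHG1 -0.19, SNHG5 -0.086 and SNHG15 -0.17 (difference between lines). The cause was not tested.

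Counts of hosts called moved as follows. With no filter: 2 from 6 (HCT116, 10 μM, 6 h), 2 from 4 (2 μM, 24 h), 0 from 1 (10 μM, 24 h against 6 h), 3 from 6 and 3 from 5 (Ramos 6 h, 0.5 and 2.5 μM), 3 from 6 (Ramos 2.5 μM, 24 h against 6 h) and 4 from 7 (between lines). With an equal sum: 3 from 6 (HCT116, 10 μM, 6 h), 2 from 7 (10 μM, 24 h), 0 from 1 (10 μM, 24 h against 6 h), 1 from 6 and 1 from 5 (Ramos 6 h), 6 from 0 (Ramos 2.5 μM, 24 h), 2 from 0 (Ramos doses, 24 h) and 2 from 7 (between lines). With 1 fit over all groups of the line or lines compared: 1 from 4, 1 from 7, 3 from 7 and 4 from 1 (HCT116 2 μM 24 h, 10 μM 24 h, and 24 h against 6 h at 2 and 10 μM), 2 from 0 (HCT116 doses, 6 h), 1 from 0 (Ramos doses, 24 h) and 1 from 7 (between lines). With median-ratio or quantile scaling 2 from 1, and with the replicate block 0 from 1 (10 μM, 24 h against 6 h). With a mean of at least 2 RPKM, 1 from 0 (Ramos doses, 24 h).

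Leaving out 1 library gave 2 to 7 hosts (HCT116, 10 μM, 6 h), 2 to 3 (2 μM, 24 h), 0 to 3 (10 μM, 24 h against 6 h), 2 to 6 and 3 to 7 (Ramos 6 h, 0.5 and 2.5 μM), 3 to 7 (between lines), 6 to 8 (HCT116, 2 μM, 6 h), 6 to 7 (10 μM, 24 h) and 9 to 9 (untreated lines). Replicate numbers are shared by the groups but did not pair the libraries (same-numbered deviations correlated at -0.30 to 0.18, and every pair exceeded 0.1 in 0 of 17 comparisons). With the replicate block 95 of the 100 host results in the tally above, which leaves out times and doses, were unchanged in call and direction and 5 lost the call. In 2 comparisons all 3 libraries were closest to their own number. Read depth is unknown, and precision rests on 3 libraries per group.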
